A study of Parasteatoda tepidariorum with 75 samples.

Results

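Genes for cell adhesion and for the extracellular matrix were followed in early embryos of the house spider Parasteatoda tepidariorum. The members were all gene models of the deposited count table whose description named a cadherin, alpha or delta catenin, an alpha or beta integrin, a laminin subunit, an alpha collagen chain, fibronectin, nidogen, perlecan, talin or vinculin. This rule found 98 of 27990 models, carrying 73 gene identifiers, of which 17 stood on more than 1 model. There were 32 cadherin, 32 collagen, 11 laminin, 8 integrin alpha, 4 integrin beta and 6 fibronectin models, and 1 model each for catenin alpha, catenin delta, nidogen, talin and vinculin. No model was described as perlecan, and the 6 fibronectin models were proteins with fibronectin type-III domains, none of them fibronectin itself. A level of at least 1 CPM (counts scaled to a common library size) in some library of a comparison was needed for testing: 78 members reached it in at least 1 of 12 comparisons and 20 in none, among them 4 without a single count.

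The 68 libraries were made from poly(A) RNA, each from pooled embryos of a single female of a laboratory stock. Parental RNA interference (pRNAi) was done by injecting the female with double-stranded RNA of Pt-hh (the Hedgehog ligand), Pt-ptc (its receptor Patched), Pt-msx1 (a homeobox transcription factor) or gfp (a jellyfish gene, the control), so that embryos of her later egg sacs were affected. Embryos of the same female from an egg sac laid before the injection were the untreated samples. At early stage 3, when the embryo first shows asymmetry, there were 4 Pt-hh, 6 Pt-ptc and 6 gfp pRNAi libraries, against 2, 3 and 3 untreated libraries. At late stage 5, when the germ disc shows regional gene expression, there were 4 Pt-hh, 6 Pt-ptc, 3 Pt-msx1, 6 gfp (females 1 to 3) and 2 gfp (females 4 and 5) pRNAi libraries, against 2, 3, 3, 3 and 2 untreated libraries. At early stage 6, when the disc begins to become a germ band, there were 3 Pt-msx1 and 2 gfp pRNAi libraries, against 3 and 2 untreated libraries. Replicates were different females, and most Pt-hh, Pt-ptc and gfp females gave several pRNAi egg sacs that share their mother. With the female as a block, p-values in those comparisons measure the spread of responses between females together with the spread between egg sacs of a female.

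Cadherins are calcium-dependent adhesion proteins that hold cells together. Inside the cell, classical cadherins bind catenins: catenin delta steadies the cadherin at the membrane, and catenin alpha, with a beta catenin, links it to actin. Integrins are pairs of an alpha and a beta chain that bind the matrix outside, and talin and vinculin couple them to actin inside. Laminin trimers and collagen IV are the networks of the basement membrane, and nidogen bridges them. In spider embryos the germ disc is an epithelial sheet, and a group of mesenchymal cells, the cumulus, migrates beneath it.

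Totals on gene models were 5961730 to 16400327 per library, with a median of 9854679. Pt-hh fell in Pt-hh pRNAi, to 2.30 to 3.32 CPM against 33.6 to 70.8 CPM in untreated embryos at late stage 5 (log2 fold change -4.004, SE 0.24), and to 1.38 to 6.21 CPM against 10.95 to 22.1 CPM at early stage 3. Pt-ptc was at 41.7 to 75.4 CPM in Pt-ptc pRNAi at early stage 3, against 72.5 to 165.6 CPM untreated (log2 fold change -0.91, SE 0.16, adjusted p = 0.0227), and at 502 to 704 CPM in the libraries labelled Pt-ptc pRNAi at late stage 5, against 409 to 554 CPM untreated (adjusted p = 0.301). Pt-msx1 was 83.0 to 117 CPM against 78.7 to 133 CPM at late stage 5 and 98.1 to 201 CPM against 125 to 166 CPM at early stage 6 (edgeR adjusted p = 1 and 0.935), so at late stage 5 for Pt-ptc, and at both stages for Pt-msx1, the targeted transcript does not check the labels. For Pt-ptc the paper proposes that its knockdown raises Hedgehog signaling, which in turn activates Pt-ptc transcription. It cites earlier work in which fewer Pt-ptc transcripts were detected in the cytoplasm after Pt-ptc pRNAi. By its own comparison it lists Pt-ptc as changed at early stage 3. For Pt-msx1 it reports the same defects from nonoverlapping double-stranded RNAs. These points were not tested here. The early stage 6 libraries labelled Pt-msx1 pRNAi female 1 and gfp pRNAi female 5 held identical counts in all 27990 models. Over 12446 models, the median absolute log2 difference of these counts from untreated early stage 6 libraries was 0.183 for gfp female 5 and 0.318 for Pt-msx1 female 1. For Pt-msx1 pRNAi and Pt-msx1 minus gfp at early stage 6, counts of called members are given with and without these libraries. Levels and fold changes of Pt-msx1 pRNAi at that stage include the shared counts. The 201 CPM of Pt-msx1 at early stage 6 is from the shared counts. In Pt-msx1 females 2 and 3 it was at 129 and 98.1 CPM after pRNAi, against 166 and 125 CPM untreated. Tests below are edgeR's quasi-likelihood F test with the female as a block, with Benjamini-Hochberg adjustment over all models tested, and a member is called at an adjusted p under 0.01. Each standard error (SE) is the absolute log2 fold change divided by the square root of the F statistic. It is unreliable where the fold change is near 0 on the log2 scale.

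In untreated embryos catenin delta-2 had the highest mean level of the group at every stage, and the neural-cadherin-like model and catenin alpha were among the leading members. Levels between genes were compared per length, on the deposited RPKM scale, and the RPKM of the leading members was as follows. At early stage 3, catenin delta-2 (aug3.g6704) stood at 73.2 ± 10.6 RPKM, an integrin beta-PS-like model (aug3.g14937) at 63.8 ± 10.2, a neural-cadherin-like model (aug3.g3700) at 54.1 ± 6.62, talin-2 (aug3.g16213) at 49.9 ± 4.59 and catenin alpha (aug3.g13984) at 36.7 ± 11.6 (SD, n = 8). From catenin delta-2 to talin-2, neighbours in this order differed by less than 1 SD. At late stage 5 catenin delta-2 was at 41.9 ± 7.12 RPKM, the neural-cadherin-like model at 32.1 ± 4.73 and catenin alpha at 30.3 ± 4.92, followed by an integrin alpha-8-like model (aug3.g7077) at 17.5 ± 5.49, talin-2 at 16.2 ± 2.44 and the integrin beta-PS-like model at 15.6 ± 2.66 (SD, n = 13). The last 3 of these did not differ beyond their spread. At early stage 6 the first 3 places were the same, and a laminin alpha model (aug3.g15376) came next with 19.6 ± 3.47 RPKM (SD, n = 5). The other members were mostly low, and 60 of the 98 averaged under 10 CPM at every untreated stage.

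Summed over a family, counts moved in opposite directions among the integrins. Integrin alpha models summed to 28.9 ± 7.09, 217 ± 44.99 and 200.0 ± 29.3 CPM at stages 3, 5 and 6, and integrin beta models to 302 ± 18.2, 114 ± 14.2 and 127 ± 15.5 CPM (SD, n = 8, 13 and 5). Laminin models summed to 167 ± 20.9, 540.3 ± 70.1 and 666 ± 97.5 CPM at the same stages. Cadherin models summed to 1118 ± 230.3, 1178 ± 177 and 1096 ± 164 CPM, with overlapping ranges at all stages. Stages 3 and 6 had no female in common, and stage 5 held the females of both, so these levels also differ by female.

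**Figure D1:**
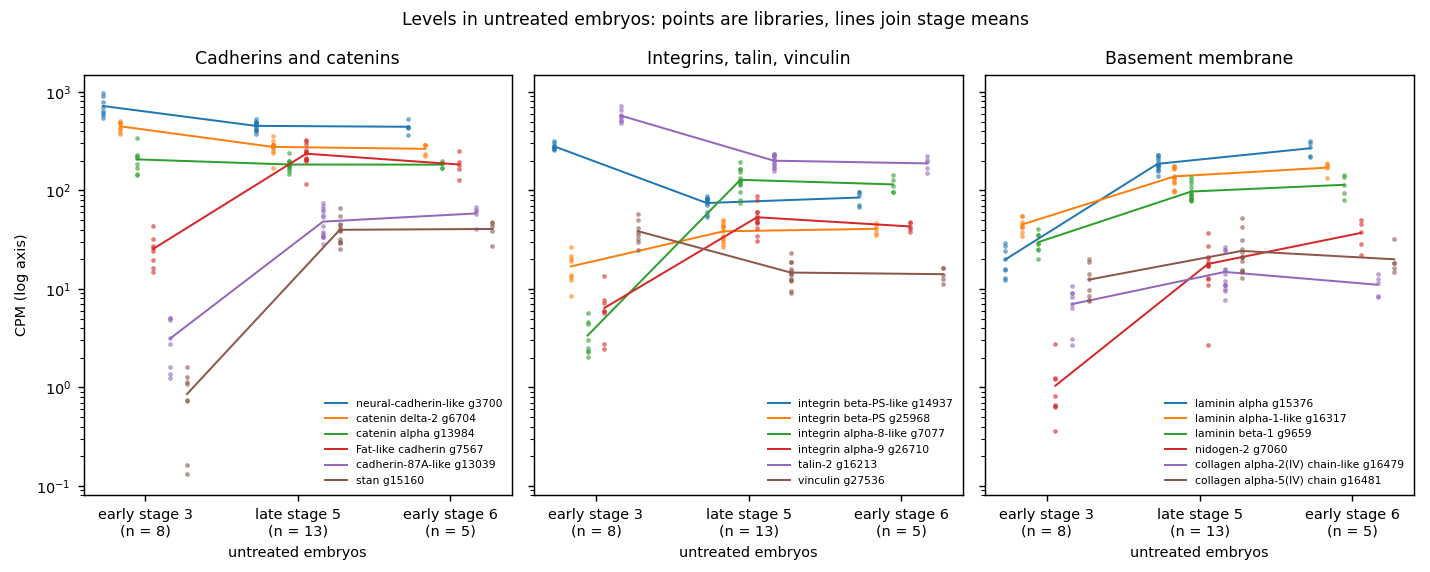
CPM on a log axis (y) of 18 members in untreated embryos, with the stages 3, 5 and 6 along x, and a point for each library (n = 8, 13 and 5) and lines joining the stage means. Stages 3 and 6 have no female in common. The integrin alpha-8-like model lies between 2.04 and 5.65 CPM at stage 3 and above 74 CPM in every library of the later stages, while talin-2 lies above 487 CPM at stage 3 and below 235 CPM later.

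Between early stage 3 and late stage 5, laminins, nidogen-2, integrin alpha chains and several atypical cadherins rose while the neural-cadherin-like, catenin delta, talin and vinculin transcripts fell. The 8 females that gave both stages were compared. Of 74 members tested, 51 were called (68.9%), against a background of 65.8% of all 14721 models tested, so the share of members called lay near that of all models. In direction, 32 members were higher (43.2%, background 31.9%) and 19 lower (25.7%, background 33.9%), and the median log2 fold change was 0.62 for members and -0.07 for all models. In pooled whole embryos, fewer cells of a type and less RNA per cell cannot be told apart.

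The neural-cadherin-like model (aug3.g3700) was at 397, 471 and 498 CPM (lowest, median and highest) at late stage 5, against 545, 676 and 968 CPM at early stage 3. The stages did not overlap, and the log2 fold change was -0.63 (SE 0.11, adjusted p = 1.29e-04). Catenin delta-2, at 289 ± 35.3 against 448 ± 51.7 CPM (SD, n = 8), fell by 0.63 on the log2 scale (SE 0.10), lower in all 8 females. Catenin alpha was not called, at 188 ± 23.8 against 206.5 ± 62.6 CPM, with a log2 fold change of -0.09 (SE 0.11, adjusted p = 0.48).

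Among the 29 cadherin models tested, 15 rose and 8 fell, where 31.9% of all models rose and 33.9% fell, and the median was 1.38 against -0.07 for all models. The 29 hold aug3.g2962, aug3.g2964 and aug3.g9309, described as a cadherin-like and PC-esterase domain protein and sharing an identifier. Other models share identifiers too, so they are not all separate genes. Of those that rose at late stage 5, the one with the highest CPM, not scaled to length, was a Fat-like cadherin (aug3.g7567). It is a relative of the Drosophila Fat proteins that act in planar polarity and growth. It was at 198, 242 and 319 CPM at late stage 5, against 15.01, 25.2 and 43.6 CPM at early stage 3, a log2 fold change of 3.33 (SE 0.14, adjusted p = 5.64e-11). Cadherin-87A-like (aug3.g13039) rose by 3.76 (SE 0.24) on the log2 scale, cadherin-23 (aug3.g13442), which in vertebrates forms the tip links of hair cells, by 3.71 (SE 0.25), and cadherin-99C-like (aug3.g18153), at 2.81 ± 1.61 against 0.319 ± 0.255 CPM, by 3.05 (SE 0.54). A further Fat-like model (aug3.g21994) had no count in any stage 3 library and was at least 4.74-fold higher at late stage 5, taking 3 counts per library as the floor. That model was chosen after its values were seen.

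The models of stan, named for the Flamingo cadherin of planar polarity in Drosophila, parted. The model aug3.g15160 was at 25.5, 31.04 and 66.2 CPM at late stage 5, against 0.133, 0.906 and 1.62 CPM at early stage 3, 44.96-fold higher (log2 fold change 5.49, SE 0.30, adjusted p = 9.67e-10). The models aug3.g6142 and aug3.g6143 carry the same identifier on another scaffold and were not called, with log2 fold changes of -0.18 (SE 0.16) and 0.37 (SE 0.14, adjusted p = 0.0308). A stan model of another identifier, aug3.g2202, rose by 0.77 (SE 0.17). These 3 models were chosen after their values were seen. Among the cadherins that fell were low transcripts: cadherin-86C-like (aug3.g25641) at 0.494 ± 0.130 against 5.62 ± 3.27 CPM (log2 fold change -3.29, SE 0.31), a Fat 4-like protocadherin (aug3.g11465) at 0.789 ± 0.592 against 6.53 ± 5.23 CPM (-2.93, SE 0.34), and a further neural-cadherin (aug3.g6370) at 1.03 ± 0.437 against 6.41 ± 2.38 CPM (-2.60, SE 0.27). A cadherin-related tumor suppressor-like model (aug3.g17409) fell by 0.72 (SE 0.14), and this call was lost without the female as a block (adjusted p = 0.0168).

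The integrin side turned over. The alpha-8-like model (aug3.g7077, Scaffold15:1105459-1204577 of Ptep_1.0), named for a vertebrate alpha chain that binds matrix proteins, was at 80.0, 124 and 194 CPM at late stage 5, against 2.04, 2.78 and 5.65 CPM at early stage 3. It was 38.2-fold higher, with no overlap (log2 fold change 5.26, SE 0.27, adjusted p = 3.70e-10). Integrin alpha-9 (aug3.g26710) was at 30.4, 50.0 and 87.8 CPM against 2.45, 5.93 and 13.6 CPM, a log2 fold change of 3.17 (SE 0.21). Integrin alpha-PS1 (aug3.g23988), the Drosophila laminin-binding chain by name, was not called, at 14.2 ± 3.37 against 10.5 ± 3.78 CPM (0.51, SE 0.20, adjusted p = 0.034). In all, 4 of 6 alpha models tested rose and none fell, beside 31.9% and 33.9% of all models. Those that rose besides aug3.g7077 and aug3.g26710 were among aug3.g20575, aug3.g473 and aug3.g474. These share an identifier, so the models counted are not all separate genes.

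The beta chain with the highest CPM moved the other way. The integrin beta-PS-like model aug3.g14937 was at 54.2, 78.5 and 82.9 CPM at late stage 5, against 256, 276 and 315 CPM at early stage 3, without overlap and lower in all 8 females (log2 fold change -1.94, SE 0.12, adjusted p = 2.71e-09). The model described as integrin beta-PS (aug3.g25968) rose to 39.9 ± 7.91 CPM at late stage 5, against 16.9 ± 5.83 CPM (1.29, SE 0.16). The models aug3.g4259 and aug3.g24363 share an identifier and were low and not called, with log2 fold changes of -0.97 (SE 0.50) and -1.17 (SE 0.81). Talin-2 (aug3.g16213) was at 168, 198 and 232 CPM against 487, 566 and 716 CPM, a log2 fold change of -1.51 (SE 0.09, adjusted p = 2.09e-09). Vinculin (aug3.g27536) was at 14.6 ± 4.30 against 38.6 ± 10.7 CPM (-1.39, SE 0.19). Neither talin-2 nor vinculin overlapped between the stages.

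In the basement membrane, 6 of 9 laminin models and nidogen-2 rose and no laminin fell, where 31.9% of all models rose and 33.9% fell. The laminin alpha model (aug3.g15376) was at 140.0, 175 and 229 CPM at late stage 5, against 12.2, 18.1 and 29.5 CPM at early stage 3 (log2 fold change 3.26, SE 0.17, adjusted p = 6.32e-10). The laminin alpha-1-like model (aug3.g16317, Scaffold2204:66793-181864 of Ptep_1.0) was at 97.5, 149 and 179 CPM against 34.1, 43.1 and 55.5 CPM (1.70, SE 0.14), and laminin beta-1 (aug3.g9659) was at 90.2 ± 9.78 against 29.9 ± 6.80 CPM (1.62, SE 0.12). All 3 were higher in 8 of 8 females, without overlap. Nidogen-2 (aug3.g7060) was at 2.70, 17.2 and 27.0 CPM against 0.359, 0.741 and 2.73 CPM (3.90, SE 0.37, adjusted p = 3.36e-07). It was higher in every female, but the ranges met, with the lowest late stage 5 value just under the highest early stage 3 value.

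Collagens were mixed. Of 16 models tested, 5 rose and 4 fell, beside 31.9% and 33.9% of all models, and the median was 0.19. The collagen IV models aug3.g16478 and aug3.g16479 (alpha-2-like, sharing an identifier) and aug3.g16481 (alpha-5) lie next to each other on Scaffold2240 of Ptep_1.0, the first 2 on the minus strand and the last on the plus strand. They rose by 1.17 (SE 0.19), 1.24 (SE 0.20) and 0.95 (SE 0.27) on the log2 scale, each in 8 of 8 females, to means of 8.54, 15.98 and 24.97 CPM against 3.98, 7.01 and 12.4 CPM. The call for aug3.g16481 was lost without gfp female 1, Pt-hh female 1 or Pt-ptc female 1 (adjusted p between 0.0133 and 0.0188). The alpha-1(I)-like model aug3.g7749 rose by 1.15 (SE 0.23), and the low alpha-1(I) model aug3.g27696 was not called (0.74, SE 0.51). Among models with fibronectin type-III domains, the ankyrin repeat protein aug3.g27035 was at 8.18 ± 2.24 against 30.2 ± 16.8 CPM (-1.73, SE 0.22) and the 3A-like model aug3.g25325 fell by 0.63 (SE 0.18). That last call was lost without any of 5 females, namely gfp 2 and 3 and Pt-ptc 1, 2 and 3 (adjusted p up to 0.0212). The 3A model aug3.g6322 (-0.21, SE 0.14) and the Ig-like model aug3.g1401 (-0.37, SE 0.27) were not called.

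**Figure D2:**
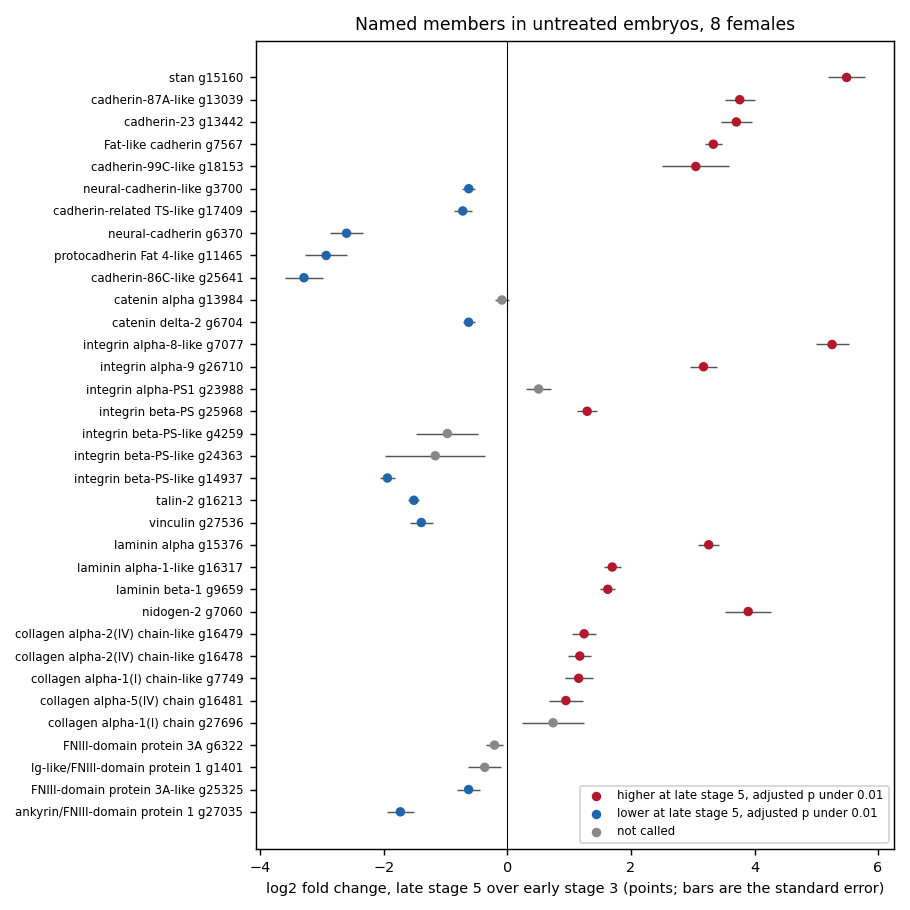
Log2 fold change of late stage 5 over early stage 3 (x, points with the standard error as bars) for the 34 named members (y, grouped by family), in the 8 females that gave both stages. Laminins, nidogen-2 and the called integrin alpha chains lie right of 0, and talin-2, vinculin, catenin delta-2 and the integrin beta-PS-like model lie left of it.

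Partners of these members were listed by words in their descriptions. Some words matched unrelated genes by their letters, such as connectin or extensin, and these were left out after the descriptions were seen. The counts that follow stand beside 31.9% of all models higher and 33.9% lower. Of 7 tested integrin adaptors (median -0.34), 3 fell and none rose: focal adhesion kinase 1 (aug3.g19828, -2.05, SE 0.11), a LIM and senescent cell antigen-like protein (aug3.g13976, -1.66, SE 0.21) and beta-parvin-like (aug3.g23557, -1.06, SE 0.12). Of 11 tested junction partners (median -0.67), 3 rose and 5 fell. The beta catenin homologue armadillo-like (aug3.g10093) rose by 0.46 (SE 0.10), while alpha-actinin (aug3.g25422) fell by 1.61 (SE 0.11) on the log2 scale and afadin-like (aug3.g4011) by 0.73 (SE 0.11). Other matrix genes split into 12 higher and 24 lower of 56 tested (median -1.66), matrix proteases into 2 and 6 of 16 (-0.46), and polarity and septate junction genes into 5 and 11 of 25 (-0.29), against -0.07 for all models. Of 5 tested mesenchymal regulators, 3 rose and none fell. Among them snail, a repressor known in Drosophila for mesoderm and epithelial-mesenchymal change, rose by 3.46 (SE 0.32) and 3.87 (SE 0.22) in its models aug3.g416 and aug3.g417. Per the paper these models are the coding and an untranslated region of the same gene, so snail is counted more than once. Marker lists moved as well, and these too were made by words: synaptotagmin and synapsin for nerve, trypsin and chymotrypsin for gut. The list names do not show that the tissue was present. Nerve genes summed to 16.9 to 29.4 CPM at late stage 5 against 170 to 261 CPM at early stage 3, and gut protease genes to 10.2 to 21.1 CPM against 1.96 to 4.22 CPM, over all untreated libraries of each stage. Their part in these results was not tested.

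At early stage 6, compared with late stage 5, nidogen-2 was the member that rose. Nidogen-2 in the 5 females gfp 4 and 5 and Pt-msx1 1, 2 and 3 was at 45.95, 22.3, 49.8, 37.96 and 28.9 CPM at early stage 6, against 17.97, 13.0, 36.7, 17.3 and 18.6 CPM at late stage 5. It was higher in every female, although the ranges overlapped (log2 fold change 0.87, SE 0.14, adjusted p = 0.00324). It was the only 1 of 62 members called (1.61%, background 2.25%). The call was lost without the female as a block (adjusted p = 0.567), and without gfp female 4, gfp female 5, Pt-msx1 female 2 or Pt-msx1 female 3 (adjusted p between 0.0111 and 0.0236). Laminin alpha (aug3.g15376), at 268 ± 45.4 against 192 ± 19.4 CPM (SD, n = 5), was higher in 5 of 5 females without overlap and missed the threshold (0.47, SE 0.10, adjusted p = 0.0156). Laminin alpha-1-like (aug3.g16317) likewise missed it, at 170 ± 21.5 against 127 ± 33.4 CPM (0.44, SE 0.11, adjusted p = 0.0315). Both passed it by edgeR's likelihood ratio test and by DESeq2. Without Pt-msx1 female 1, laminin alpha was called (0.54, adjusted p = 0.000779). In the partner lists, a SPARC-related protein (aug3.g5781) rose by 1.29 (SE 0.13), a twist-related model (aug3.g14287) rose by 1.32 (SE 0.11) and the snail model aug3.g416 fell by 0.80 (SE 0.12).

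Pt-hh pRNAi at late stage 5 was the knockdown with the most members called: 7 of 61 (11.5%), against a background of 3.55% of 12240 models. Of these 5 rose (8.2%, background 2.34%) and 2 fell (3.28%, background 1.21%). The integrin alpha-8-like and laminin alpha-1-like models fell, and an integrin beta chain, a cadherin-23 model, collagen models and an Ig-like protein rose. The median log2 fold change was -0.05 for members and 0.00 for all models. These comparisons rest on 4 pRNAi libraries of 2 females, against 1 untreated library of each, and the egg sacs of a female entered as separate libraries. With a female left out, 2 pRNAi egg sacs of 1 mother remain, against 1 untreated library. Adjusted p-values of such fits measure only the spread between her egg sacs, not the spread between females. With the pRNAi libraries summed per female 2 members were called, the integrin alpha-8-like and laminin alpha-1-like models. With the later egg sac only 3 were called, these and the integrin beta-PS-like model, and without the block 1, the integrin alpha-8-like model.

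The integrin alpha-8-like model (aug3.g7077) was at 36.7 and 35.9 CPM in pRNAi egg sacs of female 1 and at 33.5 and 46.7 CPM in those of female 2, against 116 and 135 CPM in untreated embryos of the same females. All 4 pRNAi libraries lay far below both untreated ones (log2 fold change -1.70, SE 0.13, adjusted p = 1.25e-05). The laminin alpha-1-like model (aug3.g16317) was at 79.2 and 90.2 CPM in female 1 and at 79.5 and 78.6 CPM in female 2 after pRNAi, against 168 and 165 CPM untreated. It too showed no overlap (-1.01, SE 0.11, adjusted p = 1.70e-04). For both members, the pRNAi egg sacs of each female lay below her untreated library.

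The integrin beta-PS-like model (aug3.g14937) went up by contrast. It was at 104 and 145 CPM in pRNAi egg sacs of female 1 and at 133 and 133 CPM in those of female 2, against 82.0 and 55.6 CPM untreated (log2 fold change 0.93, SE 0.18, adjusted p = 0.00584). The groups did not overlap, but without female 2 the value was 0.63 and the call was lost (adjusted p = 0.014). Cadherin-23 (aug3.g13442) was at 34.7, 37.1, 22.6 and 17.97 CPM after pRNAi, against 20.6 and 10.3 CPM untreated. It was higher within each female, although the groups overlapped (0.89, SE 0.16, adjusted p = 0.00513; without female 2 adjusted p = 0.0123).

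The collagen IV alpha-2-like model aug3.g16478 was at 16.7 and 19.3 CPM in pRNAi egg sacs of female 1 and at 50.8 and 38.3 CPM in those of female 2, against 10.7 and 13.1 CPM untreated. The log2 fold change was 1.32 (SE 0.23, adjusted p = 0.00381), and the rise was larger in female 2: without her it was 0.77 and not called (adjusted p = 0.0934). Its neighbours on the scaffold showed the same split between females. Model aug3.g16479 was at 33.8, 36.1, 125 and 79.0 CPM against 24.6 and 24.7 CPM (1.31, SE 0.30, adjusted p = 0.0181), and aug3.g16481 was at 36.3, 31.5, 135 and 78.6 CPM against 31.3 and 52.6 CPM (0.61, SE 0.24, adjusted p = 0.179), with the egg sacs of female 1 given first. Without female 1 their values were 2.04 and 1.01 on the log2 scale.

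The remaining called members were low. The Ig-like and fibronectin type-III model aug3.g1401 was at 10.5, 10.7, 2.63 and 2.02 CPM after pRNAi, against 2.14 and 1.06 CPM untreated (log2 fold change 1.89, SE 0.36, adjusted p = 0.00582). The high values were those of female 1, and without her the value was 1.11 and not called (adjusted p = 0.333). Collagen alpha-1(I) (aug3.g27696) was at 3.31, 5.80, 2.08 and 1.31 CPM, against 0.660 and 0.264 CPM untreated, where no library had more than 4 counts (2.70, SE 0.55, adjusted p = 0.00985). Its call was lost without female 1 (adjusted p = 0.0935), by DESeq2 (adjusted p = 0.0127) and with RLE normalization (adjusted p = 0.0102). Just outside the threshold were the neighbouring cadherin-23 model aug3.g13443 (0.66, adjusted p = 0.0105) and nidogen-2, at 6.91, 9.17, 7.20 and 8.21 CPM against 17.5 and 12.6 CPM (-0.90, SE 0.20, adjusted p = 0.0155). Without female 1 the log2 fold change of aug3.g13443 was 0.77, and without female 2 that of nidogen-2 was -1.10. The model aug3.g13443 was chosen after its values were seen.

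The neural-cadherin-like, catenin and talin-2 models were not called in Pt-hh pRNAi at late stage 5. The neural-cadherin-like model was at 535 ± 56.5 against 460.4 ± 46.3 CPM (log2 fold change 0.23, SE 0.14), catenin alpha at 159 ± 9.34 against 185 ± 3.05 CPM without overlap (-0.20, SE 0.11), catenin delta-2 at 279 ± 34.3 against 299 ± 84.0 CPM (-0.07, SE 0.13) and talin-2 at 194 ± 27.9 against 204 ± 26.0 CPM (-0.05, SE 0.14; SD, n = 4 and 2). Laminin alpha (-0.03, SE 0.14), laminin beta-1 (-0.11, SE 0.12) and integrin alpha-9 (-0.05, SE 0.13) were not called either. In the partner lists, 2 of 5 mesenchymal regulators, 1 of 27 other matrix genes and 1 of 10 junction partners were called, and none of 7 integrin adaptors, 10 matrix proteases and 23 polarity genes, where 3.55% of all models were called. Both snail models fell, by 2.40 (aug3.g416, SE 0.22) and 2.63 (aug3.g417, SE 0.18) on the log2 scale. They are parts of the same gene, and the count of mesenchymal regulators takes them separately. Glypican-6 (aug3.g11833), a cell surface proteoglycan, fell by 1.17 (SE 0.13). Filamin-A (aug3.g26574), an actin crosslinker, rose by 1.67 (SE 0.26). Summed marker levels after pRNAi were 41.3 to 70.03 CPM for adult blood and yolk, 139 to 168 CPM for muscle (10 models), 26.2 to 33.1 CPM for nerve and 11.9 to 15.5 CPM for gut, against 47.8 to 48.7, 158 to 165, 23.8 to 29.4 and 10.9 to 12.9 CPM untreated, all overlapping. The muscle list left out 2 models that matched by their letters, after their descriptions were seen. With them it summed to 499 to 548 CPM after pRNAi against 567 to 614 CPM, without overlap. All 13 blood and yolk models and all 10 muscle models had counts in some library, and 3 of 23 nerve and 1 of 28 gut models had none. Their part in the result was not tested.

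**Figure D3:**
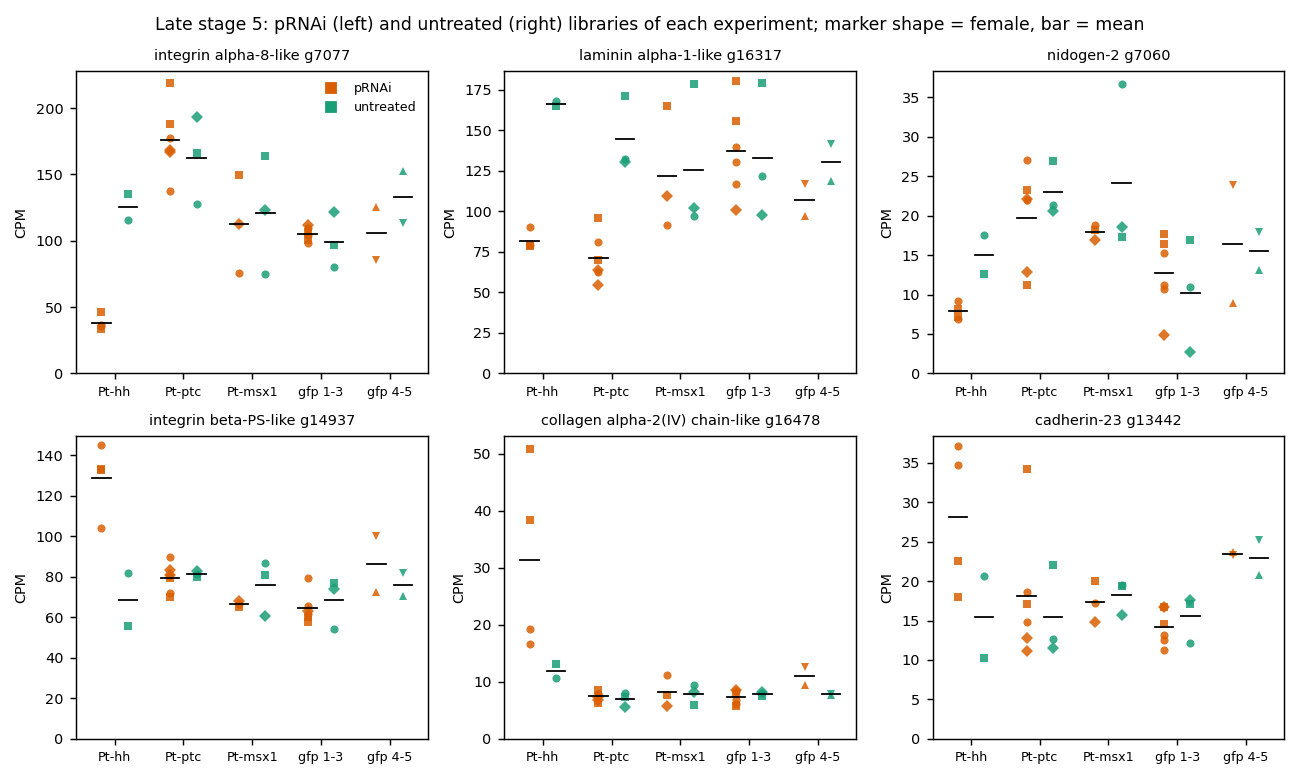
CPM (y) of 6 members at late stage 5 in each experiment (x), with pRNAi libraries left of untreated libraries, a marker shape for each female and a bar at the group mean. In Pt-hh the integrin alpha-8-like and laminin alpha-1-like models lie below their untreated libraries, at 33.5 to 46.7 and 78.6 to 90.2 CPM, and in Pt-ptc the laminin model does so at 54.7 to 95.8 CPM.

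At early stage 3 no member was called after Pt-hh pRNAi, by edgeR's quasi-likelihood or likelihood ratio test or by DESeq2. Of all models, 0.34% were called. There were 8 of 57 members (14%) with an unadjusted p under 0.05, against 15.1% of all models. The smallest adjusted p was that of cadherin-86C-like (aug3.g25641), at 12.1 to 17.5 CPM against 6.64 and 10.2 CPM (log2 fold change 0.88, SE 0.24, adjusted p = 0.0883). The integrin alpha-8-like model had a log2 fold change of -0.68 (SE 0.36, adjusted p = 0.39) at this stage, where its counts were low. Catenin delta-2 was at 589 to 726 CPM against 487 and 487 CPM, without overlap, and was not called (0.42, SE 0.12, adjusted p = 0.112). Collagen alpha-5(IV) (aug3.g16481) was at 13.2 to 20.9 CPM against 7.72 and 12.5 CPM (0.64, SE 0.26, adjusted p = 0.255), and its log2 fold change without female 1 was 1.13. At this stage adult blood and yolk genes summed to 13.1 to 16.2 CPM after pRNAi against 17.5 to 19.2 CPM, and the 10 muscle genes to 274 to 283 CPM against 284 to 298 CPM, both without overlap, while nerve and gut genes overlapped. Their part was not tested.

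In libraries labelled Pt-ptc pRNAi at late stage 5, the laminin alpha-1-like model was the only 1 of 61 members called (1.64%, background 1.01%). It was at 81.2 and 62.5 CPM in female 1, 69.8 and 95.8 CPM in female 2 and 54.7 and 63.99 CPM in female 3, against 132, 171 and 130.1 CPM in their untreated embryos. The groups did not overlap, and the log2 fold change was -1.02 (SE 0.12, adjusted p = 1.70e-04), called also without any 1 of the 3 females. Without the block it was -1.02 with an adjusted p of 0.011. The 3 models of the first stan identifier were at 19.6 ± 6.58 against 32.7 ± 5.18 CPM (aug3.g15160, -0.76, SE 0.17), 8.96 ± 3.96 against 16.4 ± 1.25 CPM (aug3.g6143, -0.95, SE 0.22) and 33.4 ± 7.57 against 52.1 ± 6.99 CPM (aug3.g6142, -0.64, SE 0.15; SD, n = 6 and 3). All 3 missed the threshold (adjusted p = 0.0382, 0.0412 and 0.046), and passed it by the likelihood ratio test and DESeq2. The stan model of another identifier, aug3.g2202, was at 29.99 ± 4.59 against 28.2 ± 4.07 CPM (0.09, SE 0.12, adjusted p = 0.778). The integrin alpha-8-like model was at 138 to 219 CPM against 127 to 194 CPM (0.13, SE 0.11). At early stage 3, 0 of 63 members were called after Pt-ptc pRNAi, where 0.134% of all models were called. At an unadjusted p under 0.05 there were 7 members (11.1%), against 15.7% of all models. The smallest adjusted p again belonged to laminin alpha-1-like, at 21.8 to 37.7 CPM against 37.8 to 54.7 CPM (-0.58, SE 0.11, adjusted p = 0.0348), and it was called by the likelihood ratio test and DESeq2. Summed marker levels of all 4 lists overlapped between pRNAi and untreated libraries at both stages.

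In gfp pRNAi of females 1 to 3, no member was called by the quasi-likelihood test at either stage. At early stage 3, 0 of 67 members were called, where 1.26% of all models were called. At an unadjusted p under 0.05 there were 19 members (28.4%), against 23.8% of all models. The likelihood ratio test called 5 members and DESeq2 2. Nidogen-2 was at 1.76 to 9.11 CPM after gfp pRNAi against 0.633 to 2.73 CPM (log2 fold change 1.40, SE 0.30, adjusted p = 0.0135). At late stage 5, 0 of 61 members were called, where 0.137% of all models were called. At an unadjusted p under 0.05 there were 10 members (16.4%), against 11.7% of all models, with 1 call by the likelihood ratio test and 0 by DESeq2. There the laminin alpha-1-like model was at 101 to 180.4 CPM against 97.5 to 179 CPM (0.02, SE 0.10) and the integrin alpha-8-like model at 98.2 to 112 CPM against 80.0 to 121 CPM (0.15, SE 0.11), both overlapping.

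In gfp pRNAi of females 4 and 5, no member of 62 was called at late stage 5 by the quasi-likelihood test, the likelihood ratio test or DESeq2, where 0.231% of all models were called. At an unadjusted p under 0.05 there were 7 members (11.3%), against 9.05% of all models. At early stage 6, cadherin-99C-like (aug3.g18153) was called (1.75% of 57 members, background 1.71%), at 3.81 and 4.07 CPM against 1.70 and 0.720 CPM. The log2 fold change was 1.72 (SE 0.39, adjusted p = 0.00383). The library of 4.07 CPM is the one whose counts also stand under Pt-msx1: without female 5 the value was 1.16, without female 4 it was 2.50, and neither can be tested with 1 library a group. The call was lost by DESeq2 (adjusted p = 0.804) and without the block (adjusted p = 0.999).

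In libraries labelled Pt-msx1 pRNAi, no member was called at late stage 5 (63 tested) or early stage 6 (62 tested), and 0% of all models were called at either stage. The paper, by its own edgeR comparison, listed genes under a false discovery rate of 0.01 in Pt-msx1 pRNAi. As the fit here called no model at all, it cannot show that members did not respond. At an unadjusted p under 0.05 there were 1 member at late stage 5 (1.59%, against 5.59% of all models) and 4 at early stage 6 (6.45%, against 6.23%). The likelihood ratio test and DESeq2 called 0 members at both stages. The smallest adjusted p was 0.664 at late stage 5, for collagen CG42342 (aug3.g26230), at 2.15 to 2.99 CPM against 1.15 to 1.32 CPM, and this model was chosen after its values were seen. At early stage 6 the smallest was 0.738, for cadherin-23 (aug3.g13442), at 16.1 to 19.3 CPM against 18.7 to 25.4 CPM. The integrin alpha-8-like model had log2 fold changes of -0.06 (SE 0.15) and 0.17 (SE 0.12) at the 2 stages, and laminin alpha-1-like of -0.01 (SE 0.15) and -0.08 (SE 0.15). At early stage 6, leaving out each female in turn, including the library labelled Pt-msx1 pRNAi female 1, again called 0 members.

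**Figure D4:**
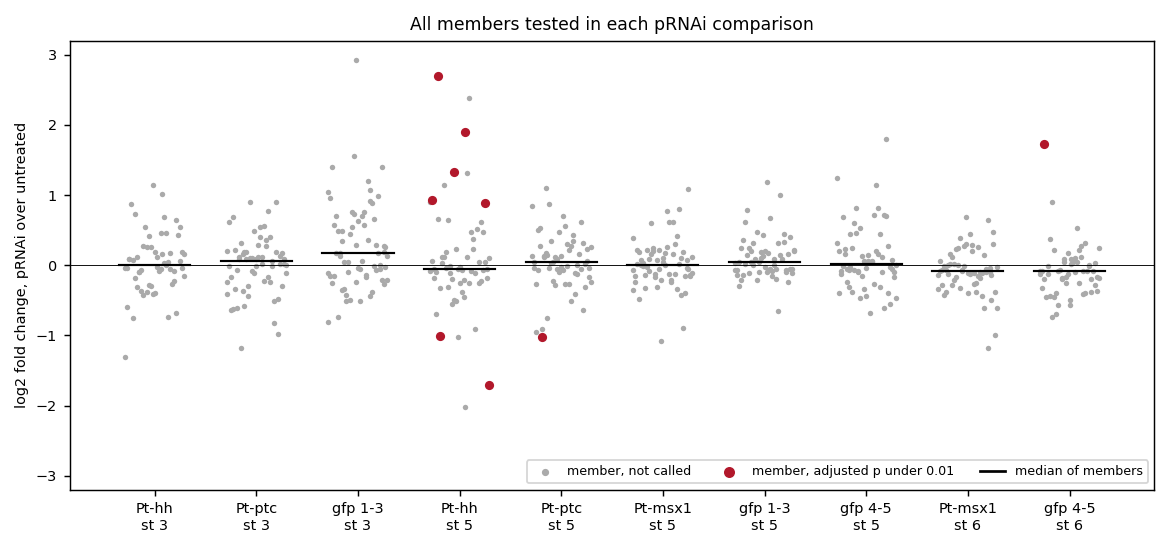
Log2 fold change of pRNAi over untreated embryos (y) for every member tested in each of 10 pRNAi comparisons (x), with called members as large filled points and the median of members as a line. The called members are 7 in Pt-hh at late stage 5, 1 in Pt-ptc at late stage 5 and 1 in gfp females 4 and 5 at early stage 6.

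Differences between responses at late stage 5 were tested directly. The Pt-hh response of the integrin alpha-8-like model was lower than the Pt-ptc response by a log2 difference of -1.83 (SE 0.19, adjusted p = 4.36e-06) and than the gfp response by -1.85 (SE 0.17, adjusted p = 1.27e-06). The integrin beta-PS-like model responded more to Pt-hh than to Pt-ptc pRNAi (0.97, SE 0.20, adjusted p = 0.00576), a call that was lost without Pt-hh female 2 (0.68, adjusted p = 0.232) or without any 1 of the Pt-ptc females (adjusted p between 0.016 and 0.0219). Against gfp its difference was 1.01 (SE 0.24, adjusted p = 0.0147). These were 2 of 63 members for Pt-hh minus Pt-ptc (3.17%, background 2.55%).

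For laminin alpha-1-like, Pt-hh and Pt-ptc responses differed by 0.01 (SE 0.18) on the log2 scale. Its Pt-hh response differed from the gfp response by -1.03 (SE 0.15, adjusted p = 3.15e-04) and its Pt-ptc response by -1.04 (SE 0.16, adjusted p = 9.21e-04). The collagen model aug3.g16478 (1.41, SE 0.29, adjusted p = 0.006) and cadherin-23 aug3.g13442 (0.95, SE 0.20, adjusted p = 0.00629) also differed between Pt-hh and gfp. Those were 4 of 64 members for Pt-hh minus gfp (6.25%, background 2.5%) and 1 of 64 for Pt-ptc minus gfp (1.56%, background 0.365%). Without Pt-hh female 2, the laminin alpha-1-like difference between Pt-hh and gfp was -0.97 (adjusted p = 0.0169) and that of aug3.g16478 was 0.87 (adjusted p = 0.302), neither called, and aug3.g16478 was also lost without gfp female 1 or 2 (adjusted p = 0.0276 and 0.027). Cadherin-23 was lost without any 1 of the 5 females (adjusted p between 0.0175 and 0.0855). The Pt-ptc minus gfp call of laminin alpha-1-like was lost without gfp female 1 (adjusted p = 0.018) or Pt-ptc female 3 (adjusted p = 0.0111), and without the block (adjusted p = 0.303). The integrin alpha-8-like difference was called in each of these settings, for both Pt-hh minus Pt-ptc and Pt-hh minus gfp. For Pt-msx1 minus gfp at early stage 6, 0 of 62 members and 0% of all models were called in edgeR's quasi-likelihood fit. Without adjustment, 3 members had a p under 0.05 (4.84%), against 2.69% of all models. Without both females whose libraries hold the same counts the number was also 0.

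Females differed among themselves. Over the 13 untreated late stage 5 libraries, the ratio of highest to lowest CPM had a median of 2.34 among the 38 members averaging at least 10 CPM at that stage, and ran between 1.40, for the neural-cadherin-like model, and 15.7. Talin-2 had the next lowest ratio. The highest ratio was that of a cadherin-23-like model (aug3.g3009), at 9.23 to 144 CPM, chosen after its values were seen.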

How the data were processed

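RNA-seq libraries of pooled embryos from single females were analysed from the authors' gene tables. Per the labels and the study's methods, the authors trimmed reads, aligned them with BLAT to the spider genome assembly Ptep_1.0, filtered the alignments and counted them per AUGUSTUS gene model with HTSeq 0.5.4p5, using strand, so that the deposited count values are whole reads per model, not normalized. The deposited RPKM values, which the authors derived from the same reads, were used only to set levels of different genes side by side. Deposited tables of the authors' own comparisons hold log2 fold changes and false discovery rates and were not used. The 7 stage 7 samples have no column in the tables used and were not analysed here. Gene descriptions came from the count table and identifiers were matched to a RefSeq table of another assembly, which was used for names only: 63 of 73 identifiers matched.

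Counts were tested with edgeR 4.0.16 (R 4.3.3), with TMM normalization, a minimum of 1 CPM in at least 1 library of the fit and the quasi-likelihood F test. The Benjamini-Hochberg adjustment was made over all models tested, at 0.01. The female was a block, since pRNAi and untreated egg sacs, and stages, came from the same mothers. Over 39 same-female sets of libraries, deviations from the group means correlated at 0.27 to 0.76. CPM values use TMM factors over all 68 libraries. DESeq2 1.42.0, edgeR's likelihood ratio test, RLE normalization, no filter, no block, a threshold of 0.05, single egg sacs, summed libraries and leaving out each female were the alternatives, and leaving out libraries with shared counts was added after seeing the data. The script was tested on simulated data. Precision follows from totals of 5961730 to 16400327 counts, and low models are limited by counting error.

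The named genes were every tested catenin, integrin beta, talin, vinculin and nidogen model, the 3 models with the highest untreated CPM in each other family, and in each comparison up to 5 called members in each direction with the smallest adjusted p, 34 in all. Members, lists and this rule were chosen with earlier results of these data known.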

Additional observations from a re-analysis of the deposited data

Results flagged for a closer look

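In 64 sets of 4 to 10 libraries, 5 held a library far from the others by Dixon's criterion, which chance meets in about 1 set in 20. Nidogen-2 (aug3.g7060) was at 2.73 CPM in untreated early stage 3 embryos of gfp female 1 and at 36.7 CPM in untreated late stage 5 embryos of Pt-msx1 female 1. Integrin alpha-9 (aug3.g26710) was at 13.6 CPM in untreated early stage 3 embryos of Pt-hh female 1, and collagen alpha-5(IV) (aug3.g16481) at 52.6 CPM in untreated late stage 5 embryos of Pt-hh female 2. Laminin alpha-1-like (aug3.g16317) was at 90.2 CPM in the day 20 egg sac of Pt-hh female 1, the highest of the 4 Pt-hh pRNAi libraries at late stage 5.

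Responses at late stage 5 that differed between knockdowns in a direct test were those of the integrin alpha-8-like model (aug3.g7077), at a log2 difference of -1.83 for Pt-hh minus Pt-ptc and -1.85 for Pt-hh minus gfp, and of the integrin beta-PS-like model (aug3.g14937), at 0.97 for Pt-hh minus Pt-ptc. Laminin alpha-1-like differed by -1.03 for Pt-hh minus gfp and -1.04 for Pt-ptc minus gfp. Collagen alpha-2(IV)-like (aug3.g16478) differed by 1.41 and cadherin-23 (aug3.g13442) by 0.95 for Pt-hh minus gfp.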

How the results depend on the processing

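The 44 results of named members called in the reported fits gave 506 values under alternative settings, pooled over stage, pRNAi and difference comparisons. Of these values, 444 kept direction and side of the threshold, 60 lost the call, 0 reversed and 2 moved. The pooled numbers do not give the stability of the pRNAi calls alone. Of 164 alternative counts of called members, 116 were within 1.5 times the reported count. These 116 include alternative counts of 0 where the reported count was also 0. The count of 51 for late stage 5 over early stage 3 was 48 to 50 with a female left out. Without the female as a block (the pairing by mother), counts were 49 for stage 5 over 3, 0 for stage 6 over 5, 1 for Pt-hh at stage 5, 0 for Pt-ptc at stage 5, 0 for gfp at stage 6, and 1, 1 and 0 for Pt-hh minus Pt-ptc, Pt-hh minus gfp and Pt-ptc minus gfp. With the likelihood ratio test they were 6 for stage 6 over 5, 1 and 4 for Pt-ptc at stages 3 and 5, 5 and 1 for gfp females 1 to 3 at stages 3 and 5, 5 for Pt-hh minus Pt-ptc and 7 for Pt-hh minus gfp. DESeq2 gave 3, 1, 4 and 2 for stage 6 over 5, Pt-ptc at stages 3 and 5 and gfp at stage 3, and 0 for gfp at stage 6. With no filter on low counts, there were 6 for stage 6 over 5, 11 for Pt-hh at stage 5, 1 and 4 for Pt-ptc and 3 and 1 for gfp. At an adjusted p under 0.05 they were 6, 11, 1, 4, 4 and 4 for stage 6 over 5, Pt-hh at stage 5, Pt-ptc at stages 3 and 5, gfp at stage 3 and gfp at stage 6, and 5 and 7 for Pt-hh minus Pt-ptc and Pt-hh minus gfp. Pt-hh at stage 5 gave 2 with libraries summed per female and 3 with the later egg sac only. With a female left out, counts ran 0 to 3 for stage 6 over 5, 0 to 1 for Pt-hh at stage 3, 5 to 8 for Pt-hh at stage 5, 1 to 3 for Pt-hh minus Pt-ptc, 1 to 5 for Pt-hh minus gfp and 0 to 1 for Pt-ptc minus gfp. The causes were not tested. Leaving out a female of gfp 4 and 5 leaves 1 library a group and gave values with no test. Leaving out a Pt-hh female leaves 1 untreated library, so those Pt-hh counts rest on egg sacs of 1 mother. Depth limits the 60 members under 10 CPM, and 2 females limit Pt-hh and gfp 4 and 5.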

Other observations

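The levels that follow were noticed in the data, with no test. The collagen models aug3.g17209 and aug3.g19790, which share an identifier, were at 5.48 to 15.8 CPM and 3.53 to 13.2 CPM in the 6 libraries of gfp female 2, and at no more than 0.749 and 0.396 CPM in the other 62 libraries. The cadherin-23-like model aug3.g3009 was at 87.2 to 151 CPM in the 8 late stage 5 libraries of Pt-msx1 female 2 and Pt-ptc females 1 and 3, pRNAi and untreated alike, and at 7.41 to 40.7 CPM in the other 26. At early stage 3 it was at 30.2 to 62.4 CPM in libraries of those Pt-ptc females, against 3.91 to 28.5 CPM in the others, and at early stage 6 at 136 to 141 CPM in those of Pt-msx1 female 2, against 14.2 to 26.4 CPM.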
